A study of Mus musculus with 9 samples.

Results

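The enzymes and readers of histone and DNA modification form the gene set described here: 84 of the 36410 gene rows in a table of ribosome footprint counts from 3 mouse striatal cell lines. They were taken by gene symbol alone: the histone deacetylases (Hdac), sirtuins (Sirt), histone lysine demethylases (Kdm), the lysine methyltransferases named Kmt2, Kmt5, Setd and Nsd, the arginine methyltransferases (Prmt), the DNA methyltransferases (Dnmt), the TET enzymes, the chromobox proteins (Cbx), the core of Polycomb repressive complex 2 (Ezh1, Ezh2, Eed, Suz12), the acetyltransferases Crebbp and Ep300, and the repressor Rest. No measured value entered the choice. The lines are immortalized striatal cells of strain C57/BL6 derived from mouse embryos. Control cells (STHdhQ7/Q7) carry a knock-in Htt exon 1 with 7 glutamines on both alleles, HD-het cells (STHdhQ7/Q111) carry 1 allele with 7 and 1 with 111 glutamines, and HD-homo cells (STHdhQ111/Q111) carry 111 glutamines on both. All cells received cycloheximide, which freezes elongating ribosomes, for 10 min before lysis, and footprints of 26 to 32 nt were sequenced from 3 rounds of culture per line. Each genotype was 1 cell line, so genotype and line cannot be told apart.

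Chromatin enzymes set and remove chemical marks on histone tails and on cytosine. Deacetylases and Polycomb complexes are associated with repression, acetyltransferases and H3K4 methyltransferases with active promoters and enhancers, DNMT enzymes methylate CG dinucleotides, and TET enzymes oxidize that methylation. In Huntington disease, mutant huntingtin is known to bind the acetyltransferase CBP (the product of Crebbp), wild-type huntingtin holds the repressor REST in the cytoplasm, and deacetylase inhibitors have been studied as candidate treatments.

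Library totals ran from 22504543 to 41888701 counts, so that 3 counts, the most that an observed 0 allows, stood for 0.0716 to 0.133 CPM (counts per 1000000 in a library), counting error only. Replicates correlated at 0.988 or more (log2 counts, over genes, which are no independent units). The members took 0.418 to 0.573% of all counts. Of 11 markers of striatal neurons, 4 had at most 3 counts in every library, among them the dopamine receptors Drd1 and Drd2, while Ppp1r1b (DARPP-32) was measured at 12.04 ± 5.01 (control), 5.18 ± 1.65 (HD-het) and 10.54 ± 5.90 CPM (HD-homo; SD, n = 3) and Foxp1 at 33.4, 43.1 and 56.9 CPM in that order. The summed level of 6 fibroblast markers spanned 2606 to 4800 CPM in control libraries, 16154 to 20507 in HD-het ones and 5419 to 6770 in HD-homo ones, with Thy1 at no more than 3 counts. Most of that sum was Col1a1 (3343, 16518 and 4567 CPM), whereas Col1a2 (24.0, 88.9 and 1027) and Dcn (7.30, 11.5 and 40.6) were highest in HD-homo cells. The sum of 8 neural progenitor markers was 396 to 544, 1118 to 1251 and 27.4 to 40.9 CPM in the same order. Most of it in control and HD-het was Nes (400, 1086 and 7.01 CPM), and of the 6 markers tested 3 were higher and 3 lower in each HD line against control. Dlx2 was lower in HD-het and higher in HD-homo (9.25, 2.11 and 19.9 CPM). The part of these differences in the results that follow was not tested. Every value is a footprint abundance, and mRNA levels were not analysed here, so more mRNA and more ribosomes per mRNA cannot be told apart.

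Of the 84 members, 82 had enough counts to be tested. Dnmt3aos, a non-coding antisense transcript of Dnmt3a, had 0 counts in all 9 libraries, which allows up to 0.133 CPM in the shallowest. Dnmt3l, a catalytically inactive partner of the de novo DNA methyltransferases, had 0 counts in all control and HD-het libraries and 8, 13 and 9 counts in the HD-homo libraries. Its HD-homo level of 0.373 ± 0.139 CPM (SD, n = 3) was at least 3.74-fold higher than in control, where the mean limit for 3 counts per library stood in for 0. It was not tested because the filter on low counts removed it, and its gene overlaps Aire.

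In HD-het against control cells, 20 of the 82 tested members were higher and 22 lower at an adjusted p under 0.05 in edgeR's quasi-likelihood test. Over all 12678 genes tested, 31.0% were higher and 29.1% lower, so the members' shares of 24.4% and 26.8% were somewhat below those of genes at large. At 2-fold or more, 4 members were higher (all genes: 13.9%) and 1 was lower (all genes: 6.91%). The CPM of both lines did not overlap for 59 members, against 71.2% of all genes. The median log2 fold change of the members was -0.03, beside 0.02 over all genes.

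In HD-homo against control cells, 8 members were higher and 16 lower, where 23.3% and 22.3% of all genes were. At 2-fold or more the counts were 2 higher and 4 lower (all genes: 8.94% and 8.27%), and 32 members did not overlap (all genes: 55.5%). Between the HD lines, 24 members were higher and 25 lower in HD-homo, where 34.6% and 32.8% of all genes were. At 2-fold or more 3 were higher and 7 lower (all genes: 11.1% and 16.2%), and 53 did not overlap (all genes: 69.5%). The members' medians were -0.00 and -0.02, beside 0.02 and 0.02 over all genes. In all 3 comparisons the members were called at lower shares than all genes tested, which is a description of the list, since the 3 comparisons share libraries. With offsets for coding length and GC content, described with the KMT2 enzymes, this held in 4 of the 6 directions.

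A difference of any kind among the 3 lines was found for 56 of 82 members (all genes: 78.4%). By non-overlapping CPM, 22 members were highest in HD-het cells (all genes: 24.2%) and 18 lowest (all genes: 24.8%). In HD-homo cells 3 were highest (all genes: 6.21%) and 4 lowest (all genes: 5.77%) with control and HD-het libraries overlapping. Levels that stepped up without overlap from control through HD-het to HD-homo were seen for 1 member, Rest (all genes: 3.57%), and levels that stepped down for 3, Kdm6a, Cbx6 and Hdac7 (all genes: 2.7%). Opposite calls in the 2 HD lines against control, with a call between them, were found for 5 members, Hdac9, Kdm4b, Kmt2a, Prmt3 and Prmt7 (all genes: 11.9%). No pairwise comparison called 22 members (all genes: 17.8%), and 6 were called in all 3 (all genes: 20.9%).

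**Figure D1:**
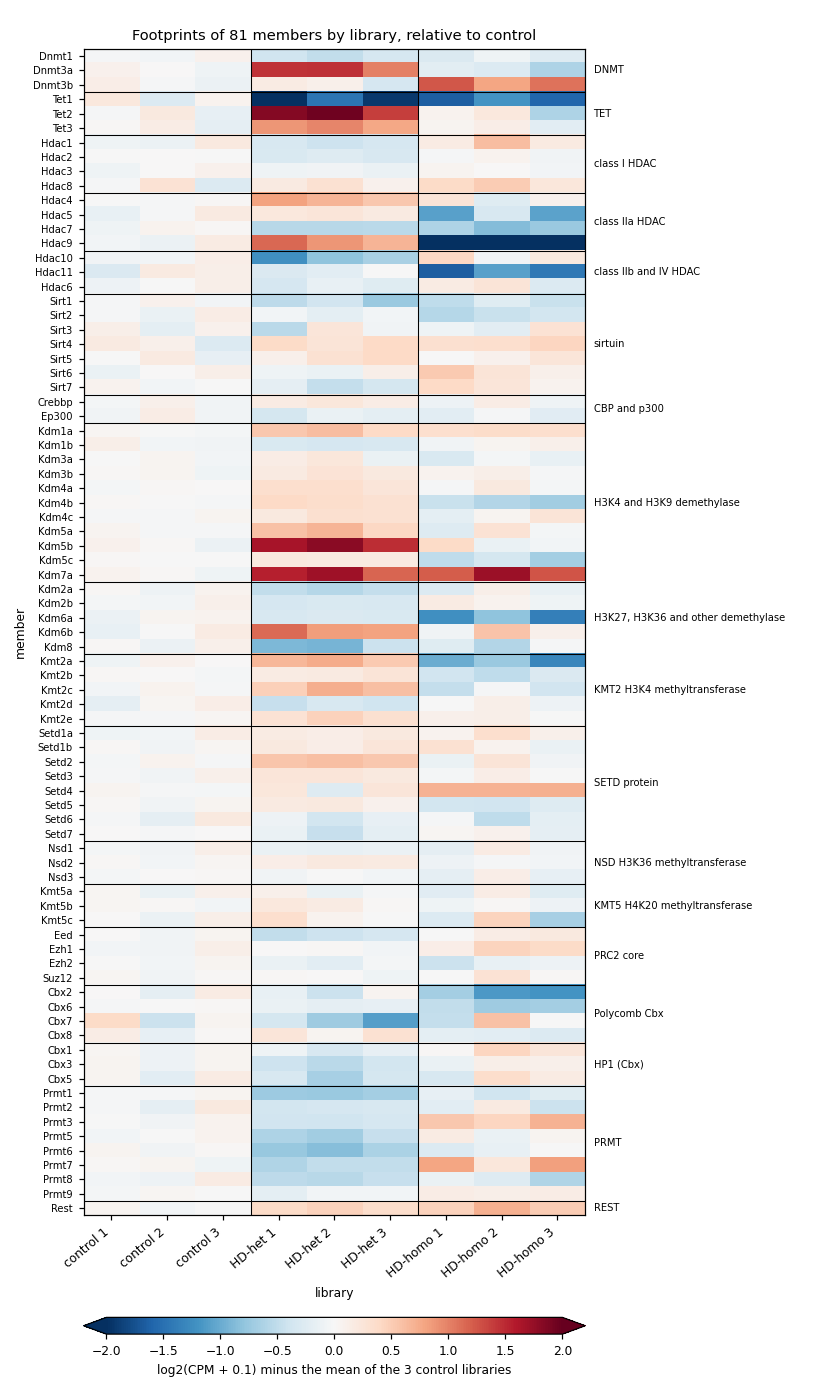
Heat map of 81 of the 82 tested members (rows, grouped by family) in the 9 libraries (columns), coloured by log2(CPM + 0.1) minus the mean of the 3 control libraries, with the colour scale ending at -2 and 2. Dnmt3a, Tet2 and Kdm5b are strongly red in the HD-het columns only, Kdm7a is red in both HD lines, and Hdac9 in the HD-homo columns lies beyond the end of the scale.

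Per kilobase of coding sequence, the members spanned a wide range of footprint density. The median member had 7.21 (control), 7.77 (HD-het) and 7.37 CPM per kb (HD-homo). The highest level in each line was that of Cbx3, an HP1 protein that binds methylated H3K9, with 1217 (control), 896 (HD-het) and 1239 CPM per kb (HD-homo). Next in control came Cbx5 at 713 and Prmt1, the main asymmetric arginine methyltransferase, at 526 CPM per kb. The lowest level in control was that of Tet1 at 0.166 CPM per kb. Dnmt1, the maintenance DNA methyltransferase, stood at 68.7 CPM per kb in control, against 3.26 for Dnmt3a and 0.795 for Dnmt3b. Among the deacetylases the order in control was Hdac1 at 201, Hdac2 at 157 and Hdac3 at 34.7 CPM per kb, with the 4 class IIa enzymes at 10.8 or less. Cbx3 has 6 named pseudogenes, and the way the authors' counting shared reads among such copies was not given, so its level is uncertain.

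**Figure D2:**
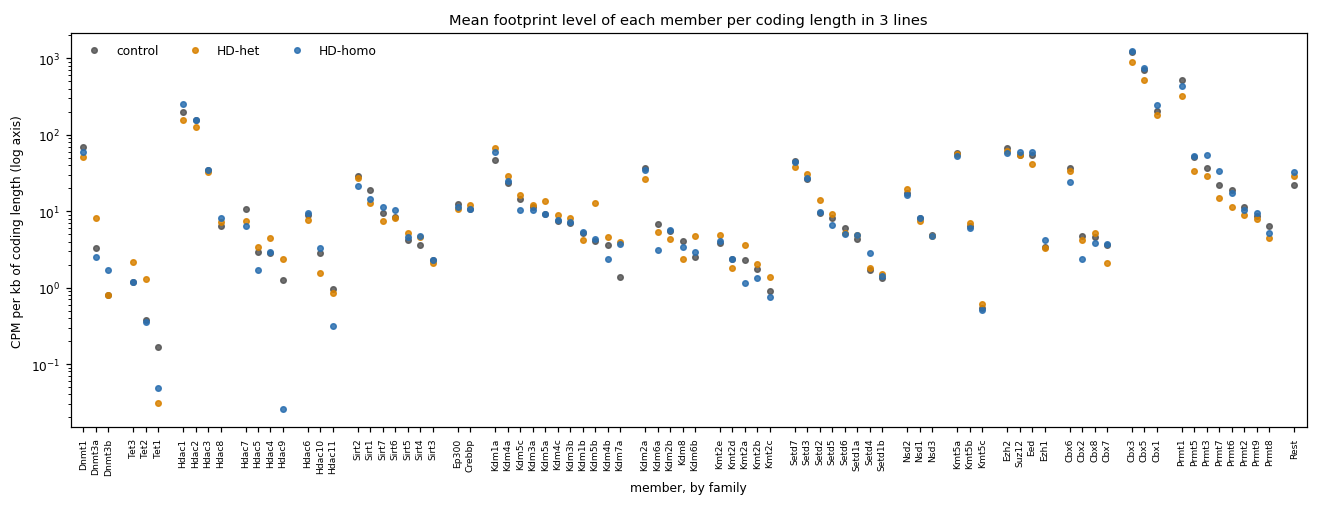
Mean footprint level per kb of coding length (log axis) of 81 of the 82 tested members in control (grey), HD-het (orange) and HD-homo (blue) cells, ordered within each family by the control level. Levels run from 0.0259 CPM per kb for Hdac9 in HD-homo cells to 1239 for Cbx3 in HD-homo cells.

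The stretch before the transcription start, from the RefSeq promoter table of build GRCm38.p6, is shown for 4 members with contrasting behaviour: Kdm7a, higher in both HD lines, Prmt6, lower in HD-het cells, Prmt7, lower in HD-het and higher in HD-homo cells, and Hdac9, nearly lost in HD-homo cells. Each line gives the 100 bases upstream of the first start listed for the gene, 5′ to 3′ on the gene's strand, with every CG dinucleotide, the substrate of DNMT and TET enzymes, in capitals.
Kdm7a (chr6:39206774-39206873, minus strand): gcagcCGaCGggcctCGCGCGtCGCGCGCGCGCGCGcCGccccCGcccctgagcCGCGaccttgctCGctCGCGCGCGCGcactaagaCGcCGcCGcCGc
Prmt6 (chr3:110251000-110251099, minus strand): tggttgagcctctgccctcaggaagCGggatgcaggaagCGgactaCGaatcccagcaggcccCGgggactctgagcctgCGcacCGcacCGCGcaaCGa
Prmt7 (chr8:106210954-106211053, plus strand): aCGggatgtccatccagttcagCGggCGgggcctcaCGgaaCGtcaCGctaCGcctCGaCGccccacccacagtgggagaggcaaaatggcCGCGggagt
Hdac9 (chr12:34917096-34917195, minus strand): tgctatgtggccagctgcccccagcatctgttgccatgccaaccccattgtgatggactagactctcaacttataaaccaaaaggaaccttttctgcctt

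Kdm7a holds 26 CG dinucleotides in this window, the most of the 67 members found in the table, Prmt7 11, Prmt6 9 and Hdac9 0. The other listed start of Hdac9 has 1. Over all 32851 listed promoters 79.3% hold at least 1 CG in the same window, and the median is 3, beside a median of 9 for the members. At least 10 were found for 29 of the 67 members and in 18.6% of all promoters. The Sp1-type motif GGGCGG, on either strand, lay in the window of 35 of 67 members and in 24.7% of all promoters. The motif contains a CG, so both counts overlap. Members were counted at the first listed start alone, while all promoters include every listed start of a gene, so the sets are unlike. These counts describe the letters only.

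The DNA methyltransferases moved in different directions. Dnmt3a, which sets new methylation, had 9.39, 8.90 and 8.35 CPM in control libraries, 24.3, 24.6 and 18.0 in HD-het ones and 7.68, 7.34 and 5.72 in HD-homo ones. All HD-het libraries lay far above the others, and the lines did not overlap. The log2 fold change was 1.33 (SE 0.15, adjusted p = 1.8e-05) in HD-het against control, and HD-homo differed from HD-het by -1.69 (SE 0.15, adjusted p = 2.15e-06). The HD-homo difference from control, -0.35, did not pass (adjusted p = 0.0784). Reads of Dnmt3a could include those of its named pseudogene.

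Dnmt3b, the other de novo enzyme, was higher in HD-homo cells: 4.98, 3.59 and 4.48 CPM there, against 2.25, 2.02 and 1.88 in control and 2.32, 2.20 and 1.61 in HD-het libraries. The 3 HD-homo libraries lay above all others, by 1.09 over control on the log2 scale (SE 0.18, adjusted p = 0.000586) and 1.08 against HD-het (SE 0.19, adjusted p = 0.000331). Dnmt1 fell in HD-het cells, from 334 ± 16.6 to 252 ± 14.0 CPM (SD, n = 3; log2 fold change -0.40, SE 0.08, adjusted p = 0.00147). Its HD-homo level of 288 ± 21.5 CPM lay between, and neither difference passed (adjusted p = 0.0585 and 0.0576).

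Of the TET enzymes, which oxidize methylated cytosine, 2 rose and 1 fell in HD-het cells (all genes: 31.0% and 29.1%). Tet2 had 2.14, 2.50 and 1.92 CPM in control libraries, 8.05, 8.63 and 5.82 in HD-het ones and 2.28, 2.52 and 1.37 in HD-homo ones. HD-het libraries stood apart from all others, and control and HD-homo libraries overlapped. The log2 fold change of 1.77 in HD-het (SE 0.22, adjusted p = 4.34e-05) was the largest rise of any member in that comparison. Tet3 rose by 0.88 on the log2 scale (SE 0.13, adjusted p = 0.000163), from 6.37 ± 0.733 to 11.8 ± 0.786 CPM, and stood at 6.36 ± 0.804 CPM in HD-homo cells.

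Tet1 was near the limit of measurement. Its counts were 31, 34 and 28 in control, 2, 11 and 4 in HD-het and 9, 10 and 6 in HD-homo libraries, that is 1.02 ± 0.190, 0.189 ± 0.113 and 0.300 ± 0.0721 CPM. All HD libraries lay below all control libraries. On the log2 scale HD-het departed from control by -2.30 (SE 0.38, adjusted p = 0.000335), or -2.95 without HD-het replicate 2, and HD-homo by -1.74 (SE 0.35, adjusted p = 0.00199). The difference between the HD lines did not pass (0.56, SE 0.47, adjusted p = 0.308), nor did it without HD-het replicate 2 (1.20).

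Of the class I deacetylases, Hdac1, Hdac2 and Hdac3 are the catalytic subunits of the SIN3, NuRD, CoREST and NCoR complexes. In HD-het cells 2 of the 4 class I members were lower (all genes: 29.1%), and for 2 of 4 HD-homo exceeded HD-het (all genes: 34.6%). Hdac1 had 274, 268 and 331 CPM in control libraries, 232, 218 and 229 in HD-het ones and 326, 446 and 327 in HD-homo ones. HD-het libraries lay below all others, and HD-homo replicate 2 was the highest. HD-homo exceeded HD-het by 0.69 on the log2 scale (SE 0.13, adjusted p = 0.000533). The HD-het fall against control (-0.36) passed at an adjusted p of 0.0292 and did not pass without HD-het replicate 1, 2 or 3 or control replicate 3 (adjusted p = 0.0529, 0.0761, 0.05003 and 0.117). Hdac2 fell from 231 ± 1.73 to 188 ± 4.73 CPM in HD-het (log2 fold change -0.30, SE 0.07, adjusted p = 0.00369) and stood at 229 ± 11.8 CPM in HD-homo cells. Hdac3 and Hdac8 were called in no comparison.

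Class IIa deacetylases bind MEF2 transcription factors and shuttle between nucleus and cytoplasm. In HD-het against control, Hdac4 and Hdac9 were higher and Hdac7 was lower, and in HD-homo against control, Hdac5, Hdac7 and Hdac9 were lower. Hdac9 (chr12:34047580-34917095, GRCm38.p6) had 3.86, 3.69 and 4.51 CPM in control and 8.99, 7.48 and 6.48 CPM in HD-het libraries. In HD-homo libraries it had 3, 2 and 2 counts, or 0.0834, 0.0765 and 0.0887 CPM, which lies at the level of the limit for 3 counts. The rise in HD-het was 0.94 on the log2 scale (SE 0.15, adjusted p = 0.000294).

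For the HD-homo loss of Hdac9 footprints the ratio of summed counts is more readable than the fitted value of -5.53. Control libraries held 376 counts against 7 in HD-homo, a control level 48.0 times as high (exact 95% interval 23.1 to 120, counting error only), and the HD-het level was 93.2 times as high (45.0 to 233). In edgeR's test the adjusted p was 4.24e-08 against control and 5.66e-09 against HD-het. Its promoter stretch, given above, holds no CG, which was also so at the first listed start of Kdm4c and Setd5. Kdm4c was called in no comparison. Setd5 was lower in HD-homo than in control (-0.34, adjusted p = 0.00552) and HD-het cells (-0.49, adjusted p = 0.000241). Neither call of Setd5 passed with offsets for coding length and GC content (adjusted p = 0.056 and 0.0595). A link between promoter CG content and footprint level was not tested. The Hdac9 locus overlaps 6 predicted or small RNA genes.

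The other class IIa members moved less. Hdac5 had 8.86, 9.68 and 11.1 CPM in control libraries, 11.5, 11.6 and 11.1 in HD-het ones and 4.59, 7.88 and 4.61 in HD-homo ones. HD-homo libraries were the lowest, with replicate 2 the highest of them. Its log2 fold change was -0.80 in HD-homo against control (SE 0.19, adjusted p = 0.00547) and -1.01 against HD-het (SE 0.19, adjusted p = 0.000661). Hdac7 lay in steps, from 31.0 ± 1.74 through 21.1 ± 0.156 to 18.4 ± 1.58 CPM. The steps against control passed (log2 fold changes -0.55 and -0.75, adjusted p = 0.000331 and 5.29e-05), while that between the HD lines did not (-0.19, adjusted p = 0.0851). Hdac4 rose in HD-het cells from 9.06 ± 0.118 to 14.6 ± 1.39 CPM (log2 fold change 0.69, adjusted p = 0.001) and stood at 9.38 ± 1.63 CPM in HD-homo cells.

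Hdac10, a class IIb enzyme that deacetylates polyamines, had 5.42, 5.52 and 6.24 CPM in control libraries, 2.39, 3.22 and 3.59 in HD-het ones and 7.65, 5.50 and 6.56 in HD-homo ones. HD-het libraries lay below all others, and control and HD-homo libraries overlapped. From control, HD-het differed by -0.90 on the log2 scale (SE 0.18, adjusted p = 0.00107) and HD-homo from HD-het by 1.11 (SE 0.18, adjusted p = 0.000188). Hdac11, the class IV enzyme, fell in HD-homo cells to 0.327 ± 0.0863 CPM, from 1.01 ± 0.183 CPM in control and 0.881 ± 0.101 CPM in HD-het (log2 fold changes -1.66 and -1.43, adjusted p = 0.000605 and 0.00108). Hdac6, the tubulin deacetylase, was called in no comparison.

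Sirtuins are NAD-dependent deacylases. Sirt1, a nuclear enzyme, had 40.8, 44.0 and 39.9 CPM in control libraries, 29.0, 31.8 and 24.9 in HD-het ones and 29.1, 35.2 and 30.6 in HD-homo ones. Both HD lines lay below control and overlapped each other. Log2 levels of HD-het differed from control by -0.54 (SE 0.11, adjusted p = 0.00133) and HD-homo by -0.40 (SE 0.11, adjusted p = 0.012), the latter not past the threshold without control replicate 2 (adjusted p = 0.0512). Sirt2, mainly a cytoplasmic deacetylase, fell in HD-homo cells to 24.9 ± 1.75 CPM from 34.2 ± 3.49 CPM in control (log2 fold change -0.46, adjusted p = 0.00317) and 31.8 ± 1.85 CPM in HD-het (-0.36, adjusted p = 0.00835).

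Sirt7, a nucleolar sirtuin, stood higher in the HD-homo than the HD-het line (0.59 on the log2 scale, SE 0.12, adjusted p = 0.00103). Its HD-het fall (-0.34, adjusted p = 0.029) did not pass without HD-het replicate 2 or 3 or control replicate 1 or 3 (adjusted p = 0.0942, 0.0509, 0.0782 and 0.0593). Sirt6, a chromatin-bound deacylase, differed between the HD lines by 0.35 (adjusted p = 0.0389) with overlapping libraries, and without HD-het replicate 1 or 2, HD-homo replicate 1 or control replicate 2 it did not pass (adjusted p = 0.105, 0.125, 0.151 and 0.0546). The mitochondrial sirtuins Sirt3, Sirt4 and Sirt5 were called in no comparison.

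Crebbp and Ep300, the closely related acetyltransferases CBP and p300, were called in no comparison. Ep300 had 86.2, 101 and 86.3 CPM in control libraries, 71.5, 83.1 and 79.0 in HD-het ones and 78.3, 89.4 and 77.7 in HD-homo ones. HD-het libraries lay just below control and overlapped HD-homo libraries. The log2 fold changes were -0.23 (SE 0.10, adjusted p = 0.0615) in HD-het and -0.16 (SE 0.10, adjusted p = 0.212) in HD-homo cells. Crebbp stood at 78.5 ± 5.34 (control), 88.8 ± 2.84 (HD-het) and 78.0 ± 7.58 CPM (HD-homo). Both genes have a long coding sequence, and with the length and GC offsets Ep300 passed as lower in HD-het (-0.51) and both as higher in HD-homo over HD-het (0.59 for Ep300, 0.36 for Crebbp).

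**Figure D3:**
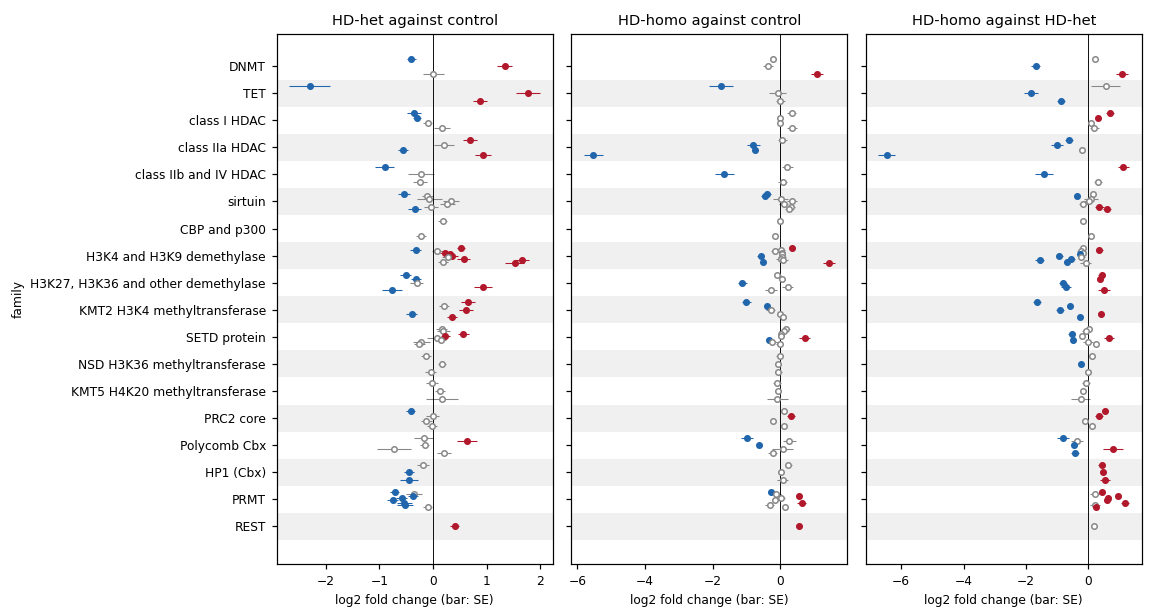
Log2 fold change (points; bars are SE) of each tested member, by family, in 3 panels (HD-het over control, HD-homo over control, HD-homo over HD-het). Filled red points are higher and filled blue points lower at an adjusted p under 0.05, and open grey points did not pass; all 6 called arginine methyltransferases lie left of 0 in the first panel and the 6 called in the third lie right of it.

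Among the 11 demethylases of H3K4 and H3K9, 7 were higher and 1 lower in HD-het against control (all genes: 31.0% and 29.1%). The family median log2 fold change was 0.31, beside 0.02 over all genes. With the length and GC offsets it was 0.18, with 4 higher and 1 lower (all genes with offsets: 31.7% and 29.8%). In HD-homo against control 2 were higher and 2 lower (all genes: 23.3% and 22.3%). Between the HD lines 1 was higher and 5 lower in HD-homo cells (all genes: 34.6% and 32.8%). Kdm5b, which removes methylation of H3K4, had 20.3, 19.5 and 17.6 CPM in control libraries, 60.0, 66.9 and 53.2 in HD-het ones and 24.9, 17.4 and 18.4 in HD-homo ones. HD-het libraries lay far above all others, and control and HD-homo libraries overlapped. HD-het differed from control by 1.65 on the log2 scale (SE 0.14, adjusted p = 3.21e-06) and HD-homo from HD-het by -1.57 (SE 0.14, adjusted p = 2.34e-06). Its relatives moved less: Kdm5a rose by 0.57 in HD-het (adjusted p = 0.00259), and Kdm5c, an X-linked H3K4 demethylase, was lower in HD-homo than in control (-0.51, adjusted p = 0.00062) and in HD-het cells (-0.69, adjusted p = 3.11e-05).

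Kdm7a, a demethylase of H3K9 and H3K27, was higher in both HD lines. It had 4.12, 3.97 and 3.69 CPM in control libraries, 11.7, 13.0 and 8.94 in HD-het ones and 9.18, 13.1 and 9.53 in HD-homo ones. Every HD library was above every control library, and the HD lines overlapped. The log2 fold changes against the shared control libraries were 1.52 (SE 0.18, adjusted p = 2.87e-05) and 1.43 (SE 0.18, adjusted p = 5.82e-05), and the HD lines differed by -0.09 (SE 0.17, adjusted p = 0.658). Kdm1a, the CoREST-bound H3K4 demethylase LSD1, also rose in both, from 123 ± 3.85 to 177 ± 13.1 CPM in HD-het (log2 fold change 0.52, adjusted p = 0.000141) and 156 ± 1.71 CPM in HD-homo (0.34, adjusted p = 0.00361).

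Kdm4b, a demethylase of H3K9, moved in opposite directions: 11.9, 11.6 and 11.4 CPM in control libraries, 15.4, 14.9 and 14.4 in HD-het ones and 8.54, 7.68 and 7.14 in HD-homo ones. No library of 1 line overlapped another line. The log2 fold changes were 0.36 in HD-het (SE 0.10, adjusted p = 0.00886) and, in HD-homo, -0.57 (SE 0.10, adjusted p = 0.000823). Its paralog Kdm4a rose by 0.31 in HD-het (adjusted p = 0.00783) and lay lower in HD-homo cells than in HD-het (-0.26, adjusted p = 0.0168), the latter not without HD-het replicate 1 or 2 or HD-homo replicate 1 or 3 (adjusted p = 0.0544, 0.0513, 0.0514 and 0.0617), with library totals (-0.18, adjusted p = 0.135) or with the length and GC offsets (-0.02, adjusted p = 0.806). Kdm1b, the 1 member of this group that fell in HD-het cells (-0.32, adjusted p = 0.015), did not pass without control replicate 1 (adjusted p = 0.0621). Kdm3b passed in HD-het at an adjusted p of 0.0373, but did not pass when any 1 of the 6 control and HD-het libraries was left out (adjusted p from 0.0634 to 0.15).

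The 5 demethylases of H3K27, H3K36 and other sites were split in HD-het cells. Of them 1 was higher and 3 lower than control (all genes: 31.0% and 29.1%). Kdm6a, the X-linked H3K27 demethylase UTX, had 26.2, 29.6 and 30.2 CPM in control libraries, 23.0, 23.3 and 23.3 in HD-het ones and 12.2, 16.3 and 11.1 in HD-homo ones. The lines lay in steps without overlap. The step from control to HD-homo was -1.12 on the log2 scale (SE 0.13, adjusted p = 3.91e-05) and that between the HD lines -0.81 (SE 0.13, adjusted p = 0.000226). The step from control to HD-het, -0.31, did not pass (adjusted p = 0.0586). That step passed in 6 of 18 alternative fits, among them library totals and the length and GC offsets (-0.44 with the offsets, adjusted p = 0.00522). Kdm6b, the inducible H3K27 demethylase, rose in HD-het cells from 12.4 ± 1.35 to 23.6 ± 3.09 CPM (log2 fold change 0.93, SE 0.17, adjusted p = 0.000561) and stood at 14.4 ± 3.52 CPM in HD-homo cells.

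Kdm8, a JmjC-domain protein, had 5.12, 4.61 and 5.38 CPM in control libraries, 2.66, 2.58 and 3.69 in HD-het ones and 4.23, 3.33 and 4.97 in HD-homo ones. HD-het libraries were below control, and HD-homo libraries overlapped both. HD-het fell by 0.77 on the log2 scale (SE 0.19, adjusted p = 0.0041). The difference of 0.50 between the HD lines (adjusted p = 0.0359) did not pass without HD-het replicate 1 or 2, HD-homo replicate 1 or 3 or control replicate 1 (adjusted p from 0.0508 to 0.134). The H3K36 demethylases Kdm2a and Kdm2b were both lower in HD-het than in control (log2 fold changes -0.51 and -0.32, adjusted p = 0.00121 and 0.012), and HD-homo exceeded HD-het by 0.42 and 0.38 (adjusted p = 0.00346 and 0.00397). The Kdm2b fall did not pass without control replicate 3 (adjusted p = 0.0524).

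The KMT2 enzymes are the large H3K4 methyltransferases of the MLL complexes. In HD-het cells 3 of 5 members were higher (Kmt2a, Kmt2c, Kmt2e) and 1 was lower (Kmt2d), where 31.0% and 29.1% of all genes were. In HD-homo against HD-het cells 4 were lower and Kmt2d was higher (all genes: 32.8% and 34.6%). Kmt2a had 26.1, 29.2 and 27.6 CPM in control libraries, 43.6, 46.4 and 39.9 in HD-het ones and 13.8, 16.4 and 11.1 in HD-homo ones. The 3 lines did not overlap. On the log2 scale HD-het departed from control by 0.65 (SE 0.13, adjusted p = 0.000988), HD-homo by -0.9997 (SE 0.13, adjusted p = 7.93e-05) and HD-homo from HD-het by -1.65 (SE 0.13, adjusted p = 8.89e-07). Kmt2d went the other way in HD-het cells, with 30.5 ± 1.53 CPM there against 40.3 ± 4.50 in control and 40.2 ± 3.08 in HD-homo (log2 fold change -0.40, adjusted p = 0.00544). Kmt2e in HD-homo cells lay below its HD-het level (-0.28, adjusted p = 0.0125), but not past the threshold without HD-het replicate 2 (adjusted p = 0.0537).

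Over all genes the fold changes varied with coding length, which is 11898 bases for Kmt2a, 14712 for Kmt2c and 16764 for Kmt2d. Over all genes tested, the median log2 fold change of HD-het against control went from -0.29 in the first of 10 bins of about equal size by coding length (median 408 bases) to 0.24 in the last (median 4839 bases). It went from 0.10 to -0.16 in HD-homo against control and from 0.41 to -0.37 in HD-homo against HD-het. Over the 10 bins of coding GC content the medians stayed between -0.04 and 0.06. The members are long genes, with a median coding length of 2559 bases against 1413 over all genes tested.

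With offsets that remove the trends in coding length and GC content from each library, an alternative chosen after seeing the data, 14 members were higher and 26 lower in HD-het (all genes with offsets: 31.7% and 29.8%), 18 and 14 in HD-homo against control (24.5% and 22.2%), and 32 and 17 in HD-homo against HD-het (35.2% and 32.6%). The members' shares of falls in HD-het (31.7%) and of rises between the HD lines (39.0%) then exceeded those of all genes. The log2 fold change of Kmt2a in HD-het became 0.23 (adjusted p = 0.0513), that of Kmt2c 0.20 (adjusted p = 0.0684) and that of Kmt2e 0.14 (adjusted p = 0.135). Kmt2a in HD-homo became -0.65 against control (adjusted p = 0.000288) and -0.88 against HD-het (adjusted p = 1.48e-05). Kmt2d became -0.9986 in HD-het and 1.45 between the HD lines, and Kmt2b and Kmt2e lost their negative sign between the HD lines (0.10 and 0.10, adjusted p = 0.415 and 0.29). Kmt2c between the HD lines went from -0.90 (adjusted p = 8.25e-05) to -0.10 (adjusted p = 0.312), so that Kmt2a alone of the 4 was still lower. In HD-homo against control, where Kmt2a and Kmt2b were lower, Kmt2b no longer passed (-0.10, adjusted p = 0.478) and Kmt2d and Kmt2e passed as higher (0.45 and 0.24, adjusted p = 0.00115 and 0.0273). Among the demethylases, Kdm3b, Kdm4a and Kdm4b no longer passed in HD-het (adjusted p = 0.871, 0.067 and 0.0863), so that 4 of the 11 demethylases of H3K4 and H3K9 were higher. Some members not called between the HD lines otherwise passed there as higher in HD-homo with the offsets. They were Nsd1 (0.64), Ep300 (0.59), Dnmt1 (0.58), Hdac6 (0.57), Setd1b (0.46), Setd1a (0.45), Rest (0.41), Crebbp (0.36), Nsd3 (0.27), Kdm3b (0.25) and Suz12 (0.20). Tet2, Kdm5b, Kdm7a, Dnmt3a and Hdac9 kept HD-het log2 fold changes of 1.55, 1.47, 1.43, 1.22 and 0.81, all past the threshold. All 6 arginine methyltransferases lower in HD-het passed as well.

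**Figure D4:**
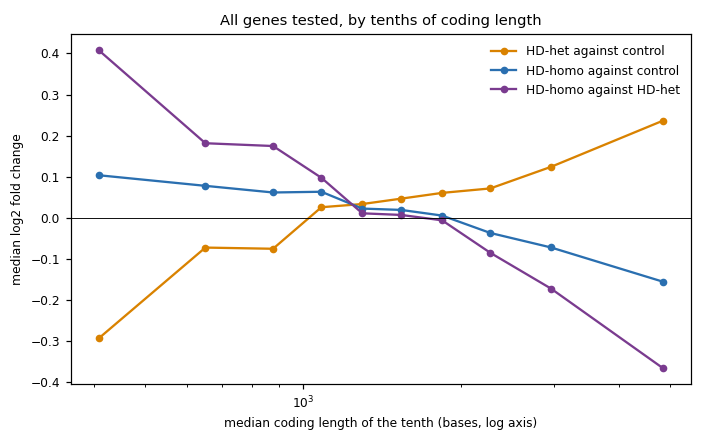
Median log2 fold change of all genes tested with a known coding sequence, in 10 bins by coding length (log axis, bases), for the 3 comparisons. HD-het against control climbs from -0.29 to 0.24, while HD-homo against HD-het drops from 0.41 to -0.37.

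Of 8 Setd proteins, 2 were higher in HD-het (all genes: 31.0%), and 1 was higher and 1 lower in HD-homo against control (all genes: 23.3% and 22.3%). With the length and GC offsets 1 was higher in HD-het (all genes with offsets: 31.7%). In HD-homo against control 4 were then higher and none lower (all genes with offsets: 24.5% and 22.2%). Between the HD lines 3 were higher and none lower (all genes with offsets: 35.2% and 32.6%). Without the offsets 1 and 2 had been called there (all genes: 34.6% and 32.8%). Setd2, which sets trimethylation of H3K36, had 70.8, 76.2 and 71.3 CPM in control libraries, 107, 111 and 105 in HD-het ones and 66.1, 86.5 and 69.4 in HD-homo ones. HD-het libraries were above all others. From control, HD-het differed by 0.56 on the log2 scale (SE 0.10, adjusted p = 0.000558) and HD-homo from HD-het by -0.54 (SE 0.10, adjusted p = 0.000574), the latter -0.08 with the length and GC offsets (adjusted p = 0.34). Setd4 rose in HD-homo cells to 3.69 ± 0.0314 CPM from 2.23 ± 0.0834 CPM in control (log2 fold change 0.72, adjusted p = 0.00428). Setd5 fell there to 28.7 ± 1.34 from 36.2 ± 1.49 CPM (-0.34, adjusted p = 0.00552), with an adjusted p of 0.056 under the offsets. Setd3, an actin histidine methyltransferase, passed in HD-het at an adjusted p of 0.033, but not without any 1 of the 3 HD-het libraries or control replicate 1 or 2 (adjusted p from 0.0618 to 0.134), or with the replicate number as a block (adjusted p = 0.0535).

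The NSD enzymes, which dimethylate H3K36, and the KMT5 enzymes, which methylate H4K20, had 1 call among their 6 members, Nsd2 in HD-homo against HD-het. Among all genes tested 17.8% were called in no pairwise comparison. Nsd2 had 71.8, 67.8 and 72.5 CPM in control libraries, 77.3, 80.6 and 79.7 in HD-het ones and 65.7, 69.4 and 68.2 in HD-homo ones. HD-het libraries were slightly above the rest. The difference between the HD lines was -0.23 on the log2 scale (SE 0.07, adjusted p = 0.0143) and became 0.04 with the offsets (adjusted p = 0.618). With the offsets Nsd1 and Nsd3 were lower in HD-het (-0.41 and -0.21, adjusted p = 0.0011 and 0.0428). The older-symbol row Whsc1 held counts identical to those of Nsd2 in all 9 libraries. The older-symbol rows of Kmt5b (Suv420h1), Kmt5c (Suv420h2) and Nsd3 (Whsc1l1) held different counts, so the levels of these members may be partial. Kmt5b, with 17.3, 17.0 and 16.1 CPM in control libraries, 19.4, 18.8 and 17.0 in HD-het ones and 15.8, 17.0 and 15.6 in HD-homo ones, had overlapping lines and no call (smallest adjusted p = 0.0886).

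In the PRC2 core, which methylates H3K27, Eed was the member called in HD-het cells. Eed, the subunit that binds the mark, had 72.9, 69.0 and 75.5 CPM in control libraries, 51.2, 54.4 and 57.3 in HD-het ones and 72.0, 80.2 and 82.5 in HD-homo ones. HD-het libraries were the lowest, and control and HD-homo libraries overlapped. Log2 levels of HD-het differed from control by -0.42 (SE 0.08, adjusted p = 0.00124) and HD-homo from HD-het by 0.53 (SE 0.08, adjusted p = 0.00018). Ezh2, the catalytic subunit, and Suz12 were called in no comparison. Ezh1, the alternative catalytic subunit, was higher in HD-homo than in control (0.33, adjusted p = 0.0419) and HD-het cells (0.33, adjusted p = 0.0272). The first call held without HD-homo replicate 1 or control replicate 3 and was lost without any 1 of the other libraries (adjusted p from 0.0574 to 0.148), and the second was lost without any HD-het library or HD-homo replicate 2 or 3 (adjusted p from 0.0526 to 0.0766).

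The Polycomb chromobox proteins read H3K27 methylation within PRC1. Cbx6 had 45.8, 46.1 and 47.3 CPM in control libraries, 42.4, 41.1 and 41.4 in HD-het ones and 33.1, 28.3 and 29.0 in HD-homo ones. The lines formed steps with no overlap. HD-homo fell by 0.62 on the log2 scale (SE 0.08, adjusted p = 0.0001) and the HD-het difference of -0.16 did not pass (adjusted p = 0.123). Cbx2 had 7.48, 6.49 and 8.35 CPM in control libraries, 6.68, 5.50 and 7.66 in HD-het ones and 4.59, 3.29 and 3.19 in HD-homo ones. HD-homo libraries lay below all others, at -0.99 on the log2 scale against control (SE 0.18, adjusted p = 0.00101) and -0.82 against HD-het (SE 0.18, adjusted p = 0.00212). Cbx7 passed between the HD lines (0.80, adjusted p = 0.0464) with overlapping libraries, and the call was lost without HD-het replicate 2 or 3, HD-homo replicate 2 or 3 or control replicate 3 (adjusted p from 0.0546 to 0.214) and with the length and GC offsets (0.69, adjusted p = 0.0929).

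The HP1 proteins Cbx1, Cbx3 and Cbx5 bind methylated H3K9 and compact heterochromatin. In all 3 HD-homo exceeded HD-het (all genes: 34.6%), and Cbx3 and Cbx5 were lower in HD-het than in control (all genes: 29.1%). Cbx3 had 690, 620 and 694 CPM in control libraries, 500, 461 and 515 in HD-het ones and 607, 722 and 712 in HD-homo ones. HD-het libraries were below all others. HD-het differed from control by -0.44 on the log2 scale (SE 0.09, adjusted p = 0.00151) and HD-homo from HD-het by 0.47 (SE 0.09, adjusted p = 0.000792). For Cbx5 (-0.45 and 0.53, adjusted p = 0.0329 and 0.0136) the first call was lost without HD-het replicate 2 or control replicate 1 or 3 (adjusted p = 0.115, 0.0735 and 0.106) and the second without HD-het or HD-homo replicate 2 (adjusted p = 0.0629 and 0.0538). With the length and GC offsets, neither call of Cbx5 passed (adjusted p = 0.0766 and 0.114), nor did that of Cbx1 between the HD lines (0.19, adjusted p = 0.115).

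The arginine methyltransferases were called in 1 direction alone in each of the comparisons with HD-het cells. In HD-het against control 6 of 8 were lower and none higher (all genes: 29.1% and 31.0%). The median log2 fold change was -0.53, beside 0.02 over all genes. In HD-homo against HD-het 6 of 8 were higher and none lower (all genes: 34.6% and 32.8%), with a median of 0.53. Against control, HD-homo cells had 2 higher and 1 lower (all genes: 23.3% and 22.3%). The family median stayed at -0.55 and 0.51 with the length and GC offsets.

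Prmt1 had 575, 574 and 608 CPM in control libraries, 355, 351 and 366 in HD-het ones and 520, 446 and 496 in HD-homo ones. No line overlapped another. On the log2 scale HD-het departed from control by -0.71 (SE 0.08, adjusted p = 1.84e-05) and HD-homo from HD-het by 0.45 (SE 0.08, adjusted p = 0.000364). The HD-homo difference from control, -0.26 (adjusted p = 0.017), did not pass without HD-homo replicate 2 or control replicate 3 (adjusted p = 0.0501 and 0.0612). Prmt6, which methylates H3R2, had 22.2, 20.5 and 21.7 CPM in control libraries, 12.6, 11.9 and 13.8 in HD-het ones and 17.8, 19.4 and 21.2 in HD-homo ones. HD-het libraries were below the rest, at -0.75 on the log2 scale against control (SE 0.10, adjusted p = 7.82e-05). Prmt5, the main symmetric arginine methyltransferase, fell from 97.4 ± 4.02 to 65.0 ± 5.41 CPM in HD-het (log2 fold change -0.59, adjusted p = 0.000289) and stood at 99.8 ± 10.0 CPM in HD-homo cells.

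Prmt3 and Prmt7 were below control in HD-het and above it in HD-homo cells. Prmt7, which monomethylates arginine, had 46.1, 47.2 and 42.9 CPM in control libraries, 29.9, 32.1 and 32.1 in HD-het ones and 78.3, 53.0 and 80.0 in HD-homo ones. The 3 lines did not overlap, and HD-homo replicate 2 was the lowest of its line. On the log2 scale it differed from control by -0.53 in HD-het (SE 0.14, adjusted p = 0.00593) and by 0.63 in HD-homo (SE 0.14, adjusted p = 0.00293), and HD-homo from HD-het by 1.17 (SE 0.14, adjusted p = 2e-05), the largest rise of any member in that comparison. Prmt3, a cytoplasmic enzyme that methylates a ribosomal protein, had 58.2, 56.1 and 61.8 CPM in control libraries, 44.9, 44.7 and 46.4 in HD-het ones and 85.7, 79.3 and 95.2 in HD-homo ones. Again no line overlapped another. The corresponding values were -0.37 in HD-het (SE 0.09, adjusted p = 0.00299), 0.56 in HD-homo (SE 0.09, adjusted p = 0.000258) and 0.94 for HD-homo over HD-het (SE 0.09, adjusted p = 2.82e-06). Prmt8, a membrane-bound enzyme known from brain, fell in HD-het (-0.52, SE 0.14, adjusted p = 0.00831). Prmt9 passed only between the HD lines (0.24, adjusted p = 0.0228), and not without HD-het replicate 1 (adjusted p = 0.0953).

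**Figure D5:**
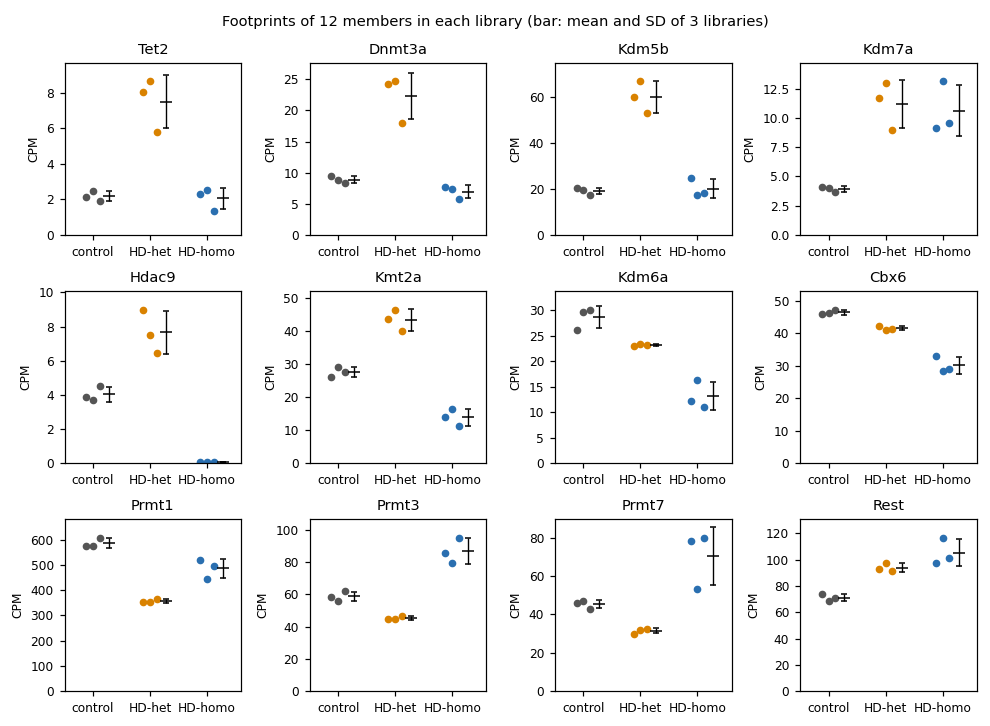
Footprint level in CPM (axes from 0) of 12 members in each of the 3 control, 3 HD-het and 3 HD-homo libraries; each point is 1 library and the bar is the mean with its SD. HD-het libraries are the highest for Tet2, Dnmt3a and Kdm5b and the lowest for Prmt1, Prmt3 and Prmt7, Hdac9 is near 0 in HD-homo cells, and Rest, Kdm6a and Cbx6 form steps.

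Rest, the repressor of neuronal genes that recruits CoREST, SIN3 and deacetylases, had 73.6, 68.8 and 71.1 CPM in control libraries, 92.9, 97.5 and 91.2 in HD-het ones and 97.8, 117 and 101 in HD-homo ones. It was the 1 member whose lines stepped up without overlap. From control, HD-het differed by 0.40 on the log2 scale (SE 0.08, adjusted p = 0.00172) and HD-homo by 0.56 (SE 0.08, adjusted p = 0.000236), while the step between the HD lines, 0.16, did not pass (adjusted p = 0.106). Of 24 REST target genes, 11 had enough counts to be tested. In HD-het 4 were higher and 4 lower than control (all genes: 31.0% and 29.1%), and in HD-homo 3 and 4 (all genes: 23.3% and 22.3%). Stmn2, a neuronal microtubule regulator, fell from 87.4 ± 18.3 to 8.58 ± 0.648 and 6.08 ± 1.25 CPM. Scn2a, a sodium channel, had at most 3 counts in each control library, and 1.91 ± 0.0871 and 1.31 ± 0.218 CPM in the HD lines. It is among the targets counted as higher, but it passed the count filter through the HD libraries alone. Its calls against control are therefore a description only.

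The partners of these enzymes were described from lists of other genes. Over all genes tested, 31.0% were higher and 29.1% lower in HD-het, and 23.3% and 22.3% in HD-homo against control. Between the HD lines 34.6% were higher and 32.8% lower in HD-homo. These shares stand beside the counts of every list here and in the next paragraph. Values of all gene lists, the REST targets and proliferation markers among them, are given without the length and GC offsets. The part of coding length in them was not tested. Of 20 Polycomb partners, 2 were higher and 8 lower in HD-het (median log2 fold change -0.21), 5 and 2 in HD-homo against control (0.06), and 11 and 2 between the HD lines (0.30). Pcgf5, a PRC1 subunit, was lowest in HD-het at 23.4 ± 1.62 CPM, with 58.7 ± 2.28 CPM in control and 34.1 ± 1.33 CPM in HD-homo cells. Of 22 partners of deacetylase complexes, 5 were higher and 6 lower in HD-het, 4 and 5 in HD-homo, and 7 and 7 between the HD lines. Those shares (22.7% and 27.3%, 18.2% and 22.7%, 31.8% and 31.8%) were near or below the shares of all genes. Of 11 partners of the MLL and SET1 complexes, none was higher and 4 were lower in HD-het, 1 and 3 in HD-homo, and 5 and 1 between the HD lines. Among them Dpy30, a core subunit, fell in HD-het (-1.37, SE 0.13, adjusted p = 7.64e-06).

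Of 11 partners and readers of DNA methylation, 3 were higher and 6 lower in HD-het, none and 1 in HD-homo, and 5 and 4 between the HD lines. Uhrf1, which brings Dnmt1 to replicating DNA, was lower in both HD lines, at 202 ± 24.95 and 230 ± 2.40 against 333 ± 22.8 CPM in control (log2 fold changes -0.72 and -0.54, adjusted p = 6.66e-05 and 0.000781). Ahcy, which clears the product of methyltransferase reactions, fell in HD-het (-0.84, adjusted p = 8.02e-06). Of 14 other histone methyltransferases 4 were higher and 7 lower in HD-het, 2 and 2 in HD-homo, and 5 and 6 between the HD lines. For 7 other demethylases these counts were 1 and 4, 3 and 2, and 6 and none. For 11 other acetyltransferases they were 3 and 6, none and 2, and 6 and 3.

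The summed level of 8 proliferation markers spanned 3748 to 3826 CPM in control libraries, 2847 to 3022 in HD-het ones and 3754 to 3927 in HD-homo ones. In HD-het 7 of the 8 were lower (all genes: 29.1%), among them Cdk1 (-0.89, adjusted p = 1.58e-06), and Mki67 was higher (1.15, adjusted p = 1.76e-05). Of the 82 tested members 22 were lower and 20 higher in the same libraries (all genes: 29.1% and 31.0%). The part of the proliferation difference in the values of the members was not tested.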

How the data were processed

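The authors deposited raw footprint counts, each row a gene symbol and each column a library, neither normalized nor pooled. The submitters' processing notes name cutadapt, Bowtie 1.0.1 and mm10; the counting program, annotation and use of strand are not given in the sources used here, and 45 members overlap other genes. Deposited counts came in 36410 rows, and 4 members also have a row under an older symbol. All 84 members matched a RefSeq symbol of GRCm38.p6. Libraries were grouped by label, 3 per line; the series describes 3 independent rounds of culture, and p-values measure the spread among these.

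Tests used edgeR 4.0.16 (limma 3.58.1, R 4.3.3): quasi-likelihood F test on all 9 libraries with line as the term, TMM factors and the filterByExpr filter, which kept 12678 genes, with Benjamini-Hochberg adjustment over these genes and a threshold of 0.05. CPM used TMM-scaled totals. In simulated counts with known changes the fit recovered 60% of 1.5-fold, 88% of 2-fold, 96% of 4-fold and 100% of 8-fold changes (50 genes each among 12520) in HD-homo against control. The simulation gave every gene the same dispersion and changed few genes, unlike the data, so these rates need not hold for the data. Coding length is that of the longest coding sequence in GENCODE M21.

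Library values are given for the 4 largest rises and falls in each comparison among called members with no overlap and at least 5 CPM in the higher line, and for the member with the smallest p of any difference in each family; partner genes are at most 3 per list by that p. Library values of Dnmt3l, Dnmt3b, Tet1 and Kdm4b fall outside this rule and were chosen after they were seen. Values of 1 member and of some marker and partner genes are not reported here. The members and lists were chosen with earlier results of these data known. Alternatives were RLE size factors, library totals, DESeq2 1.42.0, testing without a filter, a minimum of 10 counts in all libraries, the 6 libraries compared alone, a block for replicate number, the stricter threshold 0.01, a 2-fold change, the table without older symbols, and leaving out each library. Offsets from a robust local fit (span 0.5) on coding GC content and length were added after seeing the data.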

Additional observations from a re-analysis of the deposited data

Results flagged for a closer look

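In 5 members the difference from control went in opposite directions in the HD lines, both calls passed, and the test between the HD lines passed. The log2 fold change of HD-homo against HD-het was -6.46 for Hdac9, -0.93 for Kdm4b, -1.65 for Kmt2a, 0.94 for Prmt3 and 1.17 for Prmt7. Among all genes tested 11.9% met the same conditions. For Kmt2a the value was -0.88 with the length and GC offsets, and the HD-het rise of Kmt2a and of Kdm4b did not pass with them (adjusted p = 0.0513 and 0.0863), so those pairs of opposite calls rest on the fit without offsets.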

How the results depend on the processing

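Counts of called members moved by no more than 1.5 times in either direction under the alternatives, apart from a 2-fold limit, which left 4 higher and 1 lower in HD-het, 2 and 4 in HD-homo against control, and 3 and 7 between the HD lines, and the length and GC offsets, which gave 18 higher in HD-homo against control. Leaving out 1 library gave 18 to 21 higher and 18 to 27 lower in HD-het, 7 to 12 and 15 to 18 in HD-homo against control, 20 to 25 and 23 to 28 between the HD lines, 52 to 57 with any difference, 1 to 2 members rising in steps and 3 to 4 falling. With the replicate number as a block the counts were 20 and 22, 8 and 18, and 22 and 26. Same-numbered libraries did not deviate together (correlations from -0.36 to 0.17 over 9 pairs), so the numbers were not taken as pairs. The block ended 5 of the 115 called differences.

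With library totals the median level of the members in HD-het was 7.52 CPM per kb. The medians of partner lists became, in HD-het against control, -0.26 for Polycomb, -0.27 for MLL and SET1, -0.23 for other methyltransferases, -0.57 for other demethylases, -0.37 for other acetyltransferases and -0.39 for proliferation. In HD-homo against control they became 0.082 for Polycomb, 0.0074 for DNA methylation and 0.10 for other methyltransferases. Between the HD lines they became 0.38 for Polycomb, 0.041 for deacetylase complexes, where the sign turned, 0.14 for MLL and SET1, 0.27 for DNA methylation and 0.44 for proliferation.

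Of 115 called differences 83 passed in every alternative fit, 18 were lost without some 1 library, 21 with the offsets, 5 with library totals (Kdm3b, Setd3, Kdm4a, Kmt2e and Nsd2), 1 with RLE size factors and 0 with DESeq2. Nsd2 between the HD lines turned to 0.040 with the offsets. The cause was not tested. Members under about 1 CPM, such as Tet1, Hdac11 and Dnmt3l, are limited by depth.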
